A study of Mus musculus with 4 samples.

Results

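The mucosa of the colon was compared between mice that lacked Vhl in the intestine (VhlΔIE) and mice whose floxed Vhl was intact (VhlF/F), both with wild-type Apc. The comparison used 2 of the 4 arrays of the series, 1 for each genotype, and was the VhlΔIE value minus the VhlF/F value of each gene on the log2 scale. Genes were taken from probe sets with a single gene symbol, each gene by the probe set with the highest mean. Of 18194 such genes, 11871 were compared, those that read 6 or more on the log2 scale in any of the 4 arrays. This floor and the choice of probe set used all 4 arrays, so neither was set by the difference between VhlΔIE and VhlF/F alone. A gene under 6 in both arrays with intact Vhl could enter only through an array with deleted Vhl, where it then had to read higher. Likewise, a gene under 6 in every array but VhlF/F could enter only through VhlF/F, and then had to read lower in VhlΔIE.

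All mice were 129S6/SvEv and 5 weeks of age. The design text names 4 VhlF/F mice and 3 VhlΔIE mice, and 3 VhlF/F/Apcmin/+ and 5 VhlΔIE/Apcmin/+ mice for the other pair of arrays, which carry the Min mutation of Apc. The sources used here do not say whether RNA of several mice was pooled for an array, nor which promoter drove Cre recombinase. The tissue was scraped mucosa, so it holds stroma, vessels, immune cells and some muscle beside the epithelium in which Vhl was deleted. In such bulk tissue, fewer cells of a type and less RNA per cell cannot be told apart. With 1 array per genotype no difference has a replicate check, and none is given a p-value.

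Vhl encodes the substrate receptor of a ubiquitin ligase that binds the alpha subunits of the hypoxia-inducible factors (HIF) after oxygen-dependent prolyl hydroxylases of the Egln family have modified them. Without it the alpha subunits escape degradation at normal oxygen, pair with Arnt and bind DNA at short motifs with the core ACGTG or GCGTG. In the gut these factors are known for their part in iron uptake, barrier function, angiogenesis and the switch to glycolysis.

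In the values below the VhlF/F array comes first and the VhlΔIE array second, and where 4 values are given the VhlF/F/Apcmin/+ and VhlΔIE/Apcmin/+ arrays follow in that order. A value is an RMA log2 level, and a difference of 1 on this scale is a 2-fold difference. Levels near or under the floor of 6 are compressed by background, so that differences from such a level understate the fold. The Apcmin/+ pair shares no array with the comparison and is shown beside it. It does not replicate it, since its genotypes differ from these.

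The labels were checked first. Vhl read 8.40 in VhlF/F and 7.03 in VhlΔIE, 2.57-fold lower, and 8.17 and 6.56 in the Apcmin/+ pair. A further probe set for Vhl lay under the floor, at 5.89 and 5.22. Where these probes lie relative to the floxed stretch was not determined. The Cre transgene is covered by 4 control probe sets, which read 2.97 to 4.42 in VhlF/F and 7.46 to 9.95 in VhlΔIE, so the transgene's transcript followed the labels.

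Markers not tied to Vhl also separated the arrays, and each touches results below. Xist, which in females silences 1 X chromosome, read 11.37 and 5.58 here and 11.83 and 6.25 in the Apcmin/+ pair. Its 3 probe sets all lay lower in VhlΔIE, at -6.37 to -4.71. Of the Y-linked genes, Uty read 7.54 and 7.87, Eif2s3y 8.58 and 8.78, and Kdm5d 8.09 and 8.03, so Y-linked transcripts were present in both arrays. Sex makeup and Vhl deletion cannot be told apart in this comparison. Of 34 hepatocyte markers above the floor, 33 lay lower in VhlΔIE and 24 by at least 2-fold, where 1.6% of all genes were. Many of the 24, such as the fibrinogen gene Fga at 6.15, 3.38, 3.2 and 3.0, read under 6 in every array but VhlF/F. They passed the floor through VhlF/F alone, so that they had to lie lower. Albumin (Alb) read 11.53, 7.24, 6.10 and 7.08, so the VhlF/F array stood apart from the other 3. The clock output gene Dbp read 9.37, 5.86, 10.74 and 8.05. At least 2-fold lower in VhlΔIE were 5 of 20 clock genes, against 1.6% of all genes.

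Most transcripts differed little between the genotypes. The median difference over the 11871 genes was -0.02, and 88.7% of genes lay within 1.5-fold. A 2-fold or larger difference was seen in 270 genes (2.27%) with the higher level in VhlΔIE and in 190 (1.6%) with the lower. At 4-fold the numbers were 62 and 31, and at 16-fold 11 and 3. Without the listed hepatocyte and sex-linked genes 270 were higher and 165 lower. Genes off the hepatocyte list that also read high in VhlF/F alone, such as Pzp, Vtn, Plg and Serpinc1, remain among the 165. The high side was thus longer than the low side, and the 5th and 95th percentiles of all differences were -0.59 and 0.69.

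**Figure D1:**
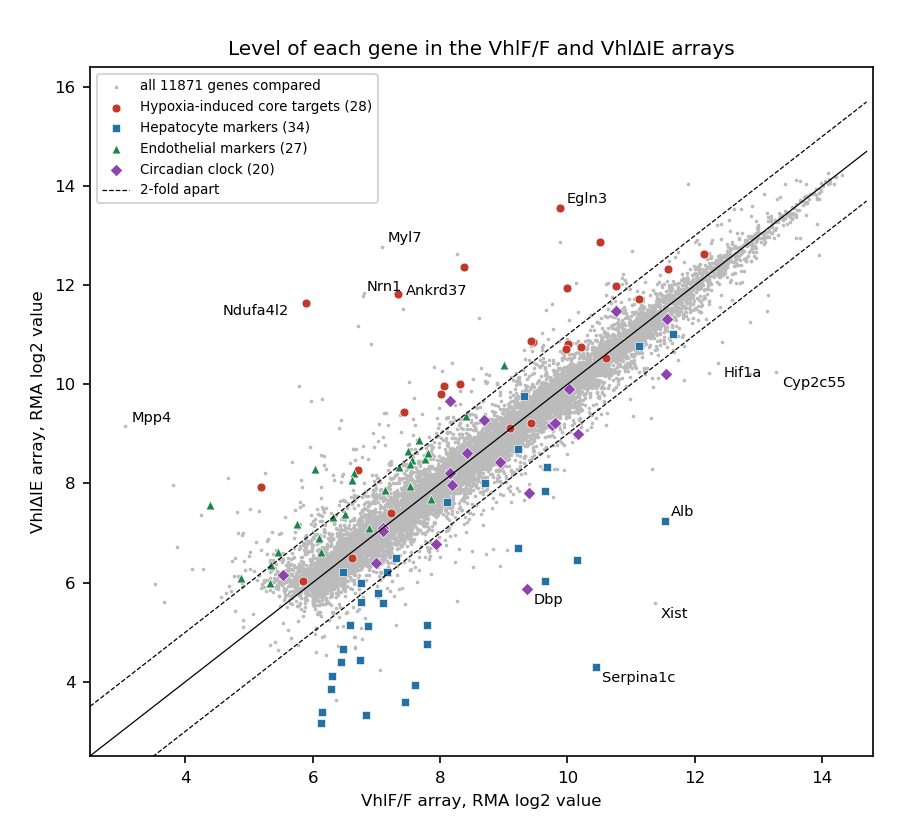
RMA log2 value of each of 11871 genes in the VhlF/F array (x axis) and the VhlΔIE array (y axis), 1 array each. The solid line marks equal levels and the dashed lines a 2-fold difference. Hypoxia-induced core targets (red circles) lie mostly above the upper line, hepatocyte markers (blue squares) mostly below the lower line, and endothelial markers (green triangles) at or near the upper line. Purple diamonds are clock genes. Alb lies at 11.53 and 7.24, and Ndufa4l2 at 5.89 and 11.65.

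The HIF machinery itself differed in a few members. Hif1a, which encodes the alpha subunit of HIF-1, read 12.36 in VhlF/F and 10.44 in VhlΔIE, 3.78-fold lower, and 12.40 and 10.07 in the Apcmin/+ pair. All 3 of its probe sets above the floor were lower, at -2.20 to -1.88. Hif3a, which encodes an alpha subunit with splice forms that restrain the other subunits, went the other way, from 8.51 to 10.10. Epas1, the remaining alpha subunit, read 12.21 and 12.03, and the shared partner Arnt 8.78 and 8.72. Deletion of Vhl acts on alpha subunit protein, which the array does not measure.

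Among the oxygen sensors, Egln3 read 9.89 and 13.56, 12.7-fold higher, and Egln1 10.01 and 10.82. Egln2, the member not known for hypoxic induction, read 9.79 and 9.68. The ligase's other subunits and partners, 13 genes with Vhl and the hydroxylases, had a median difference of -0.04. Egln3 and Vhl were the members at least 2-fold apart, 1 in each direction.

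Of the 28 hypoxia-induced core targets on the array, all of which passed the floor, 15 were at least 2-fold higher, where 2.27% of all genes were. Among the 15, Slc16a3 read under 6 in both floxed arrays, so that it had to read higher. No member was at least 2-fold lower, 25 lay above 0 (46.6% of all genes did), and the median difference was 1.31. The largest difference was that of Ndufa4l2, a mitochondrial protein that lowers the activity of respiratory complex I, which went from 5.89 to 11.65, a 54.2-fold difference from a level just under the floor. Ankrd37, an ankyrin repeat protein, went from 7.34 to 11.83, and Ak4, a mitochondrial adenylate kinase, from 8.37 to 12.37. Bnip3, a receptor for the removal of mitochondria by autophagy, went from 10.51 to 12.88. The adrenomedullin gene Adm read 7.43 and 9.44, and the angiogenic factor Vegfa 8.06 and 9.96. Ero1a, an oxidase of the endoplasmic reticulum, was higher by 1.94. In each of these genes both deleted arrays lay above both floxed arrays. The stanniocalcin gene Stc2 was higher by 1.70, the pyruvate dehydrogenase kinase Pdk1 by 1.43, the carbonic anhydrase Car9 by 1.40 and Ndrg1 by 1.22. Slc2a1, the ubiquitous glucose transporter and named here for that role after its value was seen, read 11.12 and 11.73, a difference of 0.61. Core targets thus ranged from -0.21 to 5.76.

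The stretches before the start sites of these genes were searched for ACGTG on both strands, in the 250 bases upstream of each start in the RefSeq table of mouse promoters (GRCm38.p6). Of the 15 core targets with a 2-fold or larger difference, 13 had a window there and 10 of these held the motif. By window the share was 55.6% of 18, against 47.1% of 17 windows for the core targets that differed less and 21.3% of 12268 windows for all genes compared. Over the 270 higher genes the share was 19.8% of 252 windows, near that of all genes, and over the 62 genes at least 4-fold higher it was 25.8% of 62 windows. The lower genes had 14.5% of 186 windows. For the alternative core GCGTG the shares were 66.7% in the core targets at least 2-fold higher and 43.8% in all windows, but 39.3% over the 270 higher genes and 37.1% over those at least 4-fold higher. A match is a string of letters and is no evidence of binding.

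The upstream windows of 6 core targets are printed to show how the motif is placed. They were picked among the core targets that hold it, after the matches were known. Ero1a, Vegfa, P4ha2 and Car9 also hold it and are not printed, and the windows of Adm, Pdk1 and Stc2 hold no match. Each runs 5′ to 3′ on the gene's own strand, in the build named above and credited to RefSeq, and ends at the base before the start. Capitals mark ACGTG or its reverse complement CACGT, which overlap where CACGTG stands. In the order printed, the differences of VhlΔIE minus VhlF/F were 4.49, 3.99, 3.67, 2.73, 2.37 and 1.77.
Ankrd37 (chr8:45999851-46000100, minus strand): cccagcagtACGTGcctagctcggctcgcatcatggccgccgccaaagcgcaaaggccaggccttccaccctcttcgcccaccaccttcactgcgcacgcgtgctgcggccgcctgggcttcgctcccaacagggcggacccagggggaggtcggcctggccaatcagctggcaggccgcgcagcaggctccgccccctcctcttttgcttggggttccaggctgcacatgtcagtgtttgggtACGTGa
Ak4 (chr4:101419453-101419702, plus strand): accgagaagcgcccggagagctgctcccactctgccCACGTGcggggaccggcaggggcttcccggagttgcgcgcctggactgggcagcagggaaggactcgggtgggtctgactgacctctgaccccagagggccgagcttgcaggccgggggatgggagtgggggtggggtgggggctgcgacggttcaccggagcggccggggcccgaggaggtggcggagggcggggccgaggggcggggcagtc
Egln3 (chr12:54203875-54204124, minus strand): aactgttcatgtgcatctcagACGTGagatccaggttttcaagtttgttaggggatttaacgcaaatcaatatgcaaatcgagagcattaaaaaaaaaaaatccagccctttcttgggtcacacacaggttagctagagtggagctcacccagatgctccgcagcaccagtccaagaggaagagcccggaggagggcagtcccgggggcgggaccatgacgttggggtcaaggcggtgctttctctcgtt
Slc16a3 (chr11:120948817-120949066, plus strand): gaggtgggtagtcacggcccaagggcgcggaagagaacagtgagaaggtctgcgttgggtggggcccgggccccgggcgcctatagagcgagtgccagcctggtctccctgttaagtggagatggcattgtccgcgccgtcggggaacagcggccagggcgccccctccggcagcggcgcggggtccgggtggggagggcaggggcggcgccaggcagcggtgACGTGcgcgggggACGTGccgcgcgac
Bnip3 (chr7:138909507-138909756, minus strand): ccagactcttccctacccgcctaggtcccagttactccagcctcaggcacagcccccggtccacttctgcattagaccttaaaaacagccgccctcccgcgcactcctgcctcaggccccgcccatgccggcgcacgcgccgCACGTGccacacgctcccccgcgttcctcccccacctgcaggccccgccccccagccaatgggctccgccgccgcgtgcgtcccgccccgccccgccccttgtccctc
P4ha1 (chr10:59323046-59323295, plus strand): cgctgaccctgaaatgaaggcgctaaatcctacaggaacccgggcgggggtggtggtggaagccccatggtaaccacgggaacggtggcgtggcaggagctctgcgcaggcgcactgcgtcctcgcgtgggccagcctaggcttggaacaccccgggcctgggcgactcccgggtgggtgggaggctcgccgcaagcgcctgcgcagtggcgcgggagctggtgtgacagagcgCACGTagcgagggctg
Ankrd37 and Slc16a3 each hold 2 separate copies, with 1 copy of Ankrd37 next to the start and both of Slc16a3 near it. Ak4 and Bnip3 hold the palindrome CACGTG, which counts as a match on each strand. Egln3 holds a single copy at the far end of the window, and P4ha1 holds a single copy close to its start. Ndufa4l2, Ndrg1, Slc11a2, Nrn1 and Hrob had no window in the table.

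Several of the largest differences lay in genes outside the core target list. Mpp4, a scaffold protein known from photoreceptors, read 3.05, 9.15, 3.43 and 8.82. Its neighbour in the order of the genes compared, Tmem237, a protein of the ciliary transition zone, read 6.71, 11.18, 6.51 and 11.02. Myl7, the atrial myosin light chain, read 7.08, 12.77, 6.59 and 12.92, a 51.7-fold difference in the comparison here. Nrn1, a surface protein known from neurons, read 6.79, 11.79, 5.76 and 12.20. In all 4 genes the deleted arrays lay far above the floxed arrays with no overlap. Dmp1, a matrix protein of bone and dentin, read 3.81 and 7.96, and Cck, the gut hormone cholecystokinin, 4.67 and 8.10. Both lay under the floor in VhlF/F. Dnase1l2, a nuclease of keratinocytes, read 5.79 and 9.96, Hrob, a factor of homologous recombination, 5.97 and 9.66, and the Clca family member Clca4b 7.41 and 11.52. Tcf24, Fgl1, Vnn1, Ly6d, Sprr2h and Marcksl1 differed by 2.61 to 2.97. Ido1, which degrades tryptophan, went from 6.44 to 9.28, and Slpi, a protease inhibitor of mucosal surfaces, from 9.89 to 12.88. Of the 270 higher genes 77 lay under the floor in VhlF/F, so their folds may be understated. Those that also read under 6 in VhlF/F/Apcmin/+, such as Mpp4, Dmp1, Cck, Dnase1l2, Hrob and Vnn1, passed the floor through the deleted arrays alone. The direction of their difference, though not its size, was thus fixed by the floor.

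**Figure D2:**
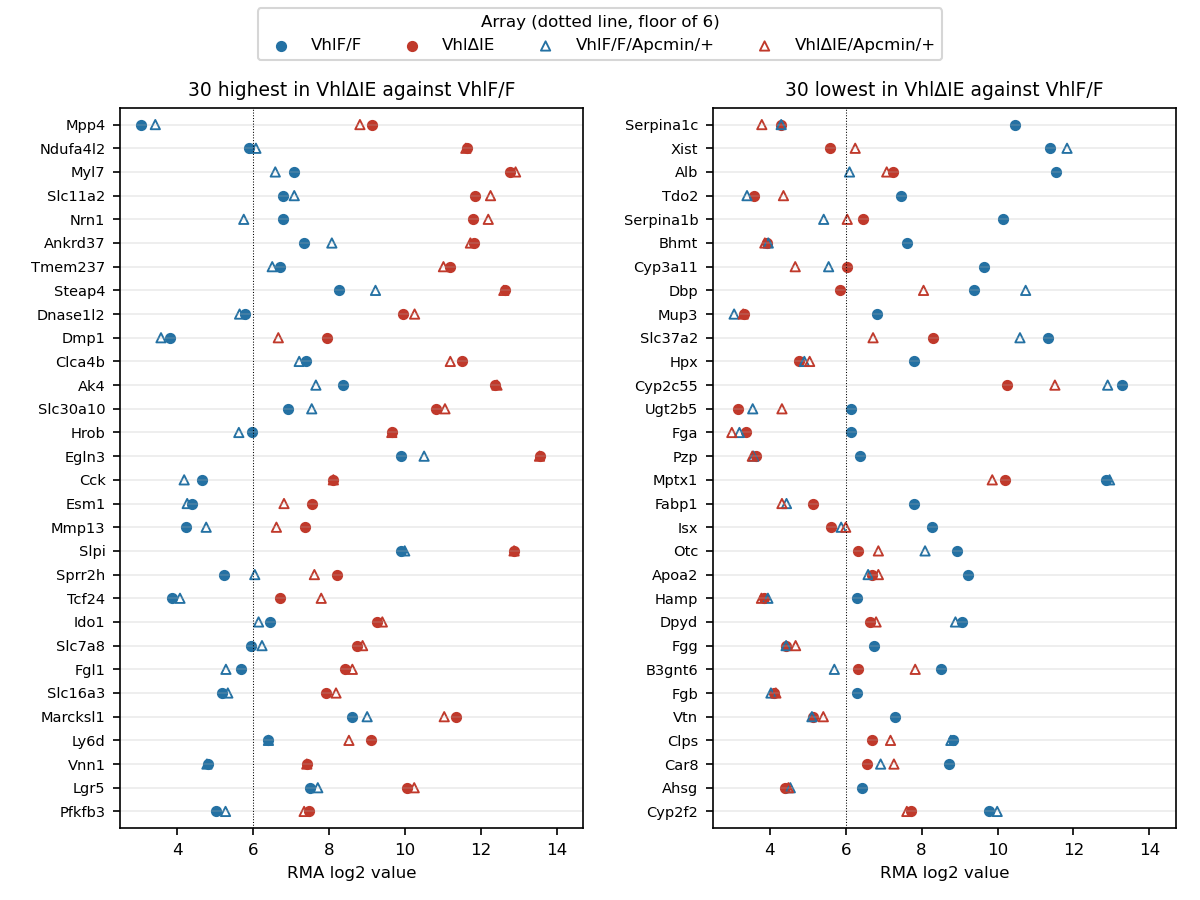
RMA log2 value (x axis) in each of the 4 arrays for the 30 genes highest (left) and the 30 lowest (right) in VhlΔIE against VhlF/F. Filled circles are the arrays with wild-type Apc, open triangles the Apcmin/+ arrays, blue floxed and red deleted Vhl. On the left red and blue separate in every row. On the right many rows, such as Alb at 11.53 against 6.10 to 7.24, have a single high blue circle.

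Of the 270 higher genes, 187 were also at least 2-fold higher in the Apcmin/+ pair, 63 were 1.5-fold to 2-fold higher, 19 differed by less in the same direction and 1 lay in the other direction. In 162 both deleted arrays lay at least 1 above both floxed arrays. The lower genes shared less. Of 190, 87 were at least 2-fold lower in the Apcmin/+ pair, 28 were 1.5-fold to 2-fold lower, 37 differed by less, 29 lay in the other direction by under 2-fold and 9 by at least 2-fold. Over all genes of the Apcmin/+ pair, 2.82% reached 2-fold upward and 1.52% downward. Xist was low in both deleted arrays, so sex makeup and Vhl status cannot be told apart in either pair.

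**Figure D3:**
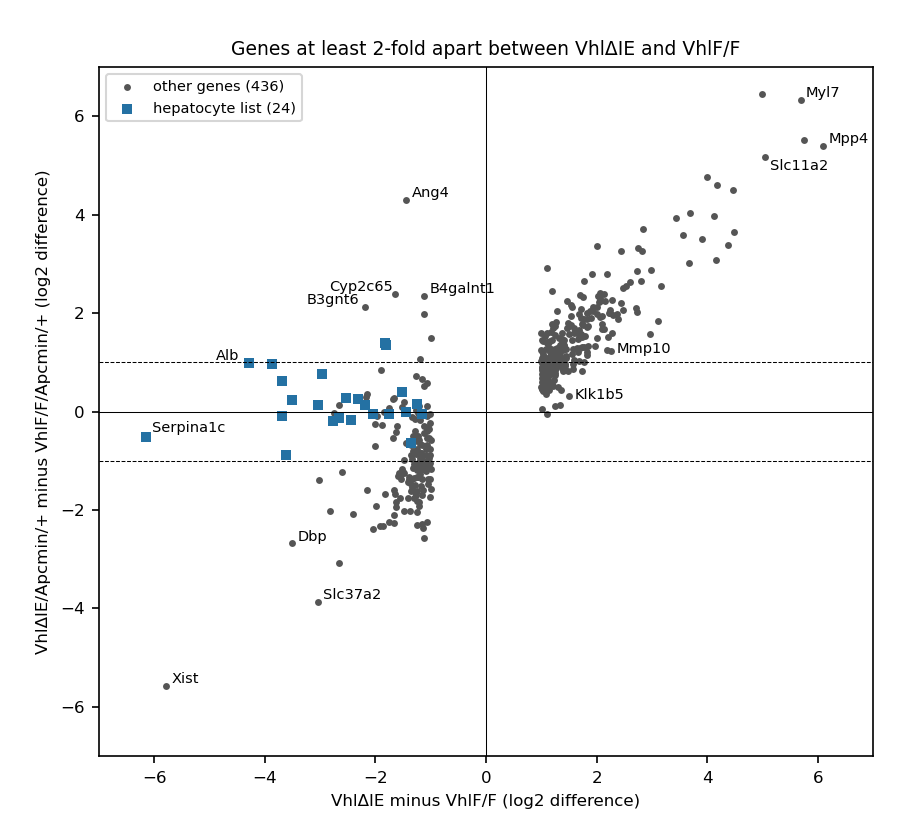
The 460 genes at least 2-fold apart between VhlΔIE and VhlF/F, by that difference (x axis, log2) and by the difference of VhlΔIE/Apcmin/+ minus VhlF/F/Apcmin/+ (y axis, log2). Dashed lines mark 2-fold in the Apcmin/+ pair. The 24 hepatocyte markers (blue squares) lie left of -1 on the x axis and between -0.88 and 1.39 on the y axis, and Ang4 lies at -1.44 and 4.30.

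Glycolysis differed in steps. Of 25 genes of glycolysis and lactate above the floor, 6 were 2-fold or more higher (2.27% of all genes were) and 0 as much lower, and the median difference was 0.61. The lactate exporter Slc16a3 read 5.19 and 7.92, and Pfkfb3, which makes the activator of phosphofructokinase, 5.02 and 7.49. Both lay under the floor in VhlF/F, and in VhlF/F/Apcmin/+ at 5.34 and 5.28. They passed the floor through the deleted arrays alone, so that they had to read higher. Of the phosphofructokinase subunits, Pfkp read 10.86 and 12.15 and Pfkl 10.61 and 11.81, while the muscle form Pfkm read 8.04 and 7.61, outside the rule for named genes and chosen after its value was seen. Aldoc, an aldolase, was higher by 1.03. Pdk1 and Slc16a3 stood at the branch from pyruvate to lactate. Glycogen genes had 2 of 13 members at least 2-fold higher, the branching enzyme Gbe1 at 6.64 and 8.70 and the phosphoglucomutase Pgm1 at 9.32 and 10.69. The glycogen-targeting subunit Ppp1r3b was higher by 0.91.

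**Figure D4:**
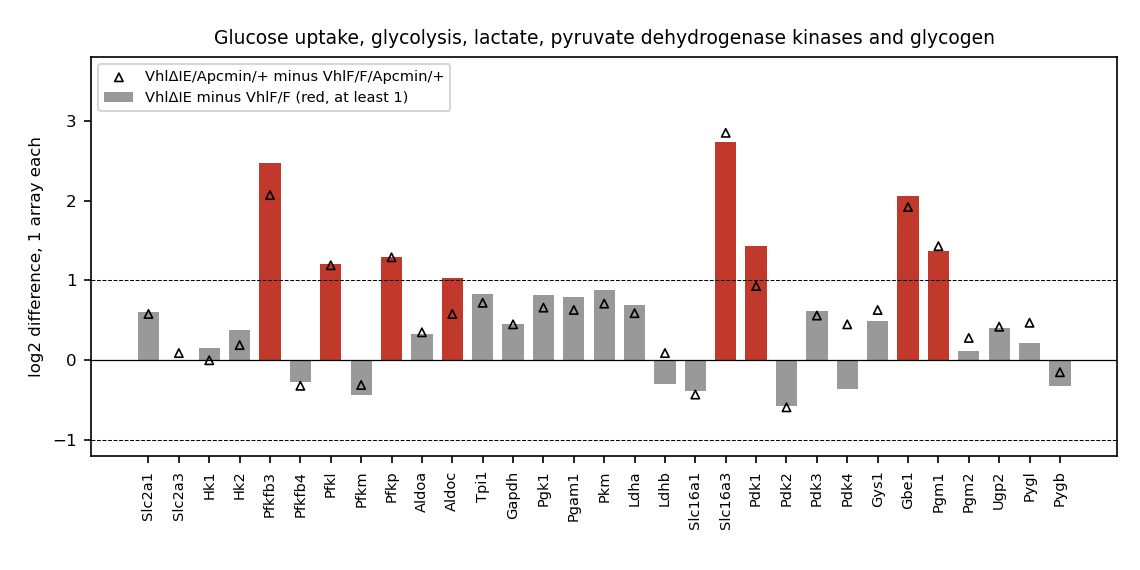
Log2 difference of genes of glucose uptake, glycolysis, lactate, pyruvate dehydrogenase kinases and glycogen. Bars show VhlΔIE minus VhlF/F, red where at least 1, triangles the same difference in the Apcmin/+ pair, and dashed lines 2-fold. Slc16a3 at 2.73 and Pfkfb3 at 2.47 are the tallest bars.

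Mitochondrial genes differed in single members. None of 51 oxidative phosphorylation genes was at least 2-fold apart, and their median was -0.04. Ndufa4, whose product sits in cytochrome oxidase and whose paralogue is Ndufa4l2, read 12.40 and 11.57, and Cox7a1 10.23 and 9.49. In the citric acid cycle list 0 of 25 genes were at least 2-fold higher. Pck1, the cytosolic enzyme that starts gluconeogenesis, read 9.84 and 8.29, and Me2, the mitochondrial malic enzyme, 10.69 and 11.64. Ppargc1b, a coactivator of mitochondrial genes, read 10.98 and 10.15.

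Lipid genes showed few members apart. Hilpda, an inhibitor of lipolysis at lipid droplets, read 7.22 and 8.38, and was the 1 member of 16 at least 2-fold apart. Of 33 genes of cholesterol and fatty acid synthesis 0 were at least 2-fold apart, with the desaturases Fads2 and Scd1 at -0.94 and -0.89. In fatty acid oxidation, Fabp1 at -2.66 and the transporter Slc27a2 at -1.89 were lower. Both genes are also expressed in liver, and Fabp1 read 7.80 in VhlF/F and 4.32 to 5.14 in the other 3 arrays.

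Iron genes held some of the largest differences, although the list as a whole had a median of -0.03. Slc11a2, the apical importer of ferrous iron, read 6.80 and 11.84, 32.8-fold higher, with 7.09 and 12.26 in the Apcmin/+ pair. All 4 of its probe sets were higher, by 2.44 to 5.04. The reductases that supply it were higher as well, Steap4 at 8.27 and 12.64 and Cybrd1 at 5.80 and 7.63. Ncoa4, which delivers ferritin for degradation, read 10.63 and 12.04, and Slc39a14, a zinc and iron importer, 8.72 and 10.03. Bmp6, the ligand that signals iron load to hepcidin, read 6.21 and 7.50, and the heme oxygenase Hmox1 5.53 and 6.60. Of 30 members 7 were at least 2-fold higher, where 2.27% of all genes were. Cybrd1 and Hmox1 also read under 6 in VhlF/F/Apcmin/+, at 5.91 and 5.71. They passed the floor through the deleted arrays alone, so that they had to read higher. Hamp, hepcidin, was the 1 member at least 2-fold lower, at 6.29, 3.85, 3.95 and 3.78. It passed the floor through VhlF/F alone, so that it had to read lower. Without hepatocyte genes the lower count was 0.

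Other metals and amino acids followed a similar layout of a few large differences. Slc30a10, a manganese exporter, read 6.92, 10.82, 7.55 and 11.06, and the copper ATPase Atp7b 5.48, 6.59, 6.45 and 6.41. Atp7b was the 1 gene of the 270 that lay in the other direction in the Apcmin/+ pair, by -0.04. Of 24 amino acid transporters 3 were at least 2-fold higher, where 2.27% of all genes were. Slc7a8, a light chain of neutral amino acid exchange, read 5.95 and 8.74, Slc7a9, a light chain of cystine uptake, 7.12 and 9.42, and the glutamine carrier Slc38a1 9.75 and 11.63. The lysosomal carrier Slc36a1 was lower, at 10.07 and 8.83. In serine metabolism Shmt2, the mitochondrial hydroxymethyltransferase, read 7.90 and 10.36, and Psat1 7.41 and 8.44. Shmt2 is the neighbour of Ndufa4l2 in the order of the genes compared. Bhmt, which remethylates homocysteine in liver, read 7.61, 3.93, 3.96 and 3.87, high in VhlF/F alone. Dpyd, which breaks down pyrimidines, read 9.05 and 6.65, and Upb1, a later enzyme of that route, 7.40 and 5.90.

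Most transporters of anions and short-chain fatty acids lay lower, few of them by 2-fold. Of 19 genes of anion and short-chain fatty acid transport, 16 lay below 0, against 53.3% of all genes compared, and the median was -0.68. Slc5a8, the sodium-coupled carrier of short-chain fatty acids, read 11.83, 10.08, 12.01 and 9.76, and the sulfate carrier Slc26a2 13.13, 11.49, 13.26 and 11.59. All 3 probe sets of Slc26a2 were lower, at -1.97 to -1.64. Of the 3 members above 0, Clca4b was the 1 at least 2-fold higher, by 4.12. Sodium absorption genes had a median of -0.29, with the sodium channel subunit Scnn1b at 7.76 and 6.84 and the exchanger Slc9a3 at 11.80 and 10.95. The water channel Aqp1 read 9.21 and 7.91. In calcium handling, the apical channel Trpv6 read 7.18 and 9.18 and the phosphate carrier Slc34a2 8.64 and 10.33, while the phosphate carrier Slc20a1 went from 12.87 to 11.25. The direction thus differed between genes of related function.

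Carbonic anhydrases split. Car9, the hypoxia-induced surface form, read 9.46, 10.86, 9.51 and 10.93. Car8, a relative without the catalytic activity, read 8.72, 6.57, 6.92 and 7.27, so VhlF/F alone was high. Car4 and Car12 differed by -0.63 and -0.69. The list median was -0.34, and it was 0.02 when VhlF/F/Apcmin/+ took the place of VhlF/F.

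Enzymes of foreign compounds were lower in many members, but part of this rested on hepatocyte genes. Of 22 cytochrome P450 genes, 9 were at least 2-fold lower and 2 higher, where 1.6% and 2.27% of all genes were. The median was -0.57. Without the hepatocyte list 6 were lower and the median was -0.43. Cyp2c55, a colonic epoxygenase, read 13.27, 10.25, 12.90 and 11.51, and Cyp2f2 9.77, 7.73, 9.99 and 7.61. Both followed Vhl status in both pairs. Cyp3a11, a main drug-metabolising enzyme of liver, read 9.65, 6.03, 5.55 and 4.67, high in VhlF/F alone. Cyp2s1 and Cyp2d26 were higher, by 1.93 and 1.54. The efflux pump Abcb1a read 12.22 and 10.23, a difference of -1.99, and its other probe set gave -1.56. Sult1a1, a sulfotransferase, read 11.34 and 9.95, and Ces2a, a carboxylesterase, 11.42 and 10.12.

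Retinoid enzymes differed in both directions. Adh6a went from 4.91 to 7.0 and Rbp7 from 5.97 to 7.18, both from under the floor. Both also read under the floor in VhlF/F/Apcmin/+, so that they had to read higher. Bco2, which cleaves carotenoids, read 8.67 and 7.16, and the retinaldehyde dehydrogenase Aldh1a1 10.99 and 9.70. Klb, the coreceptor for endocrine fibroblast growth factors, read 8.50, 6.64, 8.88 and 6.55.

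Genes of cell division lay higher as a group. Of 36 cell cycle and mitosis genes 34 lay above 0, against 46.6% of all genes, with a median of 0.77. At least 2-fold higher were 5 of them, against 2.27% of all genes. With VhlF/F/Apcmin/+ in the place of VhlF/F, 13 of the list were. Bub1, a checkpoint kinase of the kinetochore, read 7.42 and 9.48, Kif23, a motor of cytokinesis, 7.57 and 9.30, and the kinase Aurka 7.18 and 8.27. DNA replication genes had a smaller median of 0.35, with the primase subunit Prim2 at 7.20 and 8.39. With the other control its median was 0.55 and 5 members, not 2, were at least 2-fold higher. Among inhibitors, Cdkn1a, the cyclin-dependent kinase inhibitor p21, read 12.01 and 12.88, the largest rise of its list. That list, cell cycle inhibitors and p53 targets, had a median of 0.13 over 23 genes. Of these 14 lay above 0 and 9 below, and 0 were at least 2-fold apart.

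Signalling genes differed singly. Lgr5, the receptor for R-spondins on crypt stem cells, read 7.51, 10.05, 7.71 and 10.25, 5.82-fold higher here. Its list of stem and crypt markers did not follow, with a median of -0.38 over 16 genes and Sox9, a crypt transcription factor, at 8.99 and 7.77. The Wnt list had a median of -0.04. In the Notch pathway the receptors Notch3 and Notch4, known from mural and endothelial cells, read 6.01 and 7.25 and 7.52 and 8.57, while the epithelial ligand Dll1 read 8.67 and 7.46. Epiregulin (Ereg), a ligand of the EGF receptor, read 6.79 and 8.76. The feedback phosphatase Dusp6 was higher by 1.04. Id2, an inhibitor of differentiation factors, read 8.76 and 10.19. Among immediate early genes, Socs3, a brake on cytokine signalling, read 6.20 and 8.30, Ier3 7.98 and 9.53, and Dusp1 9.77 and 11.11. The list median was 0.21.

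Inflammatory mediators held large differences in a few genes. Ptges, the terminal synthase of prostaglandin E, read 6.13, 8.57, 6.77 and 8.98, and the inducible cyclooxygenase Ptgs2 6.78, 8.54, 6.27 and 8.04. The receptor Ptger3 was lower, at 6.75 and 5.09. The cytokine Mif read 11.02 and 12.70, the interleukin-25 receptor subunit Il17rb 6.11 and 7.37, and Il1b 5.01 and 6.27. Of the chemokines, Ccl8 read 7.15 and 9.42, while Ccl6 read 12.43 and 10.86 and Ccl20, which draws lymphocytes to follicles, 7.99 and 6.92. None of 31 interferon response genes was at least 2-fold apart, with a median of -0.12. Of the antimicrobial proteins, Slpi and S100a8 were higher by 2.99 and 1.71. Mptx1, a mucosal pentraxin, read 12.86, 10.20, 12.95 and 9.86, and the ribonuclease Ang4 10.61, 9.17, 7.35 and 11.66, lower here and higher in the Apcmin/+ pair.

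Genes of collagen maturation and matrix turnover lay higher. All 13 genes of collagen hydroxylation and crosslinking above the floor lay above 0, with a median of 0.40. The prolyl hydroxylase subunits P4ha1 and P4ha2 read 8.02 and 9.80 and 6.71 and 8.27. Of 16 matrix proteases and inhibitors 5 were at least 2-fold higher, where 2.27% of all genes were. Mmp13 read 4.24 and 7.36, Mmp10 5.81 and 8.07, and Mmp3 6.45 and 8.02. The 3 follow each other on the chromosome in the order of the genes compared. Genes that were not compared may lie between them. Mmp13 read under 6 in both floxed arrays and passed the floor through the deleted arrays alone, so that it had to read higher. With values under 6 raised to 6, the list median was 0.16 in place of 0.58. The collagens themselves had a median of 0.36, and Col18a1 and Col8a1 differed by 1.01 and -1.15.

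Markers of vessels and macrophages were higher. Of 27 endothelial markers above the floor 26 lay above 0, where 46.6% of all genes did. At least 2-fold higher were 12, where 2.27% of all genes were. The median was 0.98, and 0.81 in the Apcmin/+ pair. Of these 12, Esm1, Cdh5, Tek and Tie1 read under 6 in both floxed arrays. They passed the floor through the deleted arrays alone, so that they had to differ. Esm1, a secreted product of sprouting endothelium, read 4.39, 7.56, 4.27 and 6.82, and Emcn, an endothelial mucin, 6.04, 8.29, 6.10 and 8.10. Kdr and Flt1, the receptors for the product of Vegfa, differed by 1.18 and 1.46, and the junction cadherin Cdh5 by 1.14. The 1 member that lay below 0 was at -0.16. Edn1 and Edn2, which encode endothelins, were lower, at -1.01 and -1.29. All 21 macrophage and dendritic cell markers lay above 0, with a median of 0.82. It was 0.49 when VhlF/F/Apcmin/+ took the place of VhlF/F, and the members at least 2-fold higher were then 2, not 5. The integrin Itgam read 4.10 and 6.28, the chemokine receptor Ccr2 5.56 and 7.33, and the complement subunit C1qb 7.98, 9.20, 8.58 and 9.10. Itgam and Ccr2 also read under 6 in both floxed arrays, so they too had to differ. The class II gene H2-Ab1 read 9.43 and 10.77. The part of cell makeup in these differences was not tested.

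Lists of other stromal and immune cells differed in both directions. All 18 smooth muscle markers lay below 0, with a median of -0.51 and a range of -0.92 to -0.16, and 12 of 13 neuron and glia markers lay below 0 with a median of -0.21. Their medians in the Apcmin/+ pair were -0.38 and -0.51. Fibroblast markers had a median of 0.19, and T and NK cell markers 0.32 over 10 of 25 measured genes. Mcpt1 and Mcpt2, closely related proteases of mucosal mast cells, read 4.82 and 7.01 and 4.89 and 6.96. The mast cell list had a median of 0.85 over the 5 of 13 measured members above the floor, 2 of them 2-fold or more higher. These were Mcpt1 and Mcpt2, which read under 6 in both floxed arrays. They passed the floor through the deleted arrays alone, so that they had to differ. Of 13 neutrophil markers 2 passed the floor, S100a8 and Il1b, which differed by 1.71 and 1.26. Both passed it through the deleted arrays alone, so that they had to differ. Prdm1, a factor of plasma cells and of epithelium, read 6.18 and 8.56, while the list of B and plasma cell markers had a median of 0.24.

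Lists of epithelial lineage markers had medians from -0.38 to -0.04. Goblet cell markers had a median of -0.08 over 22 genes and absorptive colonocyte markers -0.18 over 20, beside -0.02 for all genes. Of the absorptive colonocyte markers 3 were at least 2-fold lower, where 1.6% of all genes were. They were Slc20a1, Guca2a and Tmigd1, which differed by -1.84, -0.11 and 1.07 in the Apcmin/+ pair. In that pair 2 members of the list were at least 2-fold higher and 2 lower. Stem and crypt markers had a median of -0.38, tuft cell markers -0.28 and small intestinal markers -0.26, the last with 4 of 18 at least 2-fold lower and 1 higher. The 4 lower were Fabp1, Apoc3, Apob and Alpi. In Fabp1 and Apoc3 VhlF/F alone stood at least 1 above each other array. In the Apcmin/+ pair 4 small intestinal markers were at least 2-fold higher and 1 lower, and Alpi differed by 1.49. Muc1, a membrane mucin, read 8.18 and 10.43, whereas the goblet factor Atoh1 read 10.85 and 10.13, and Bcas1 11.33 and 10.13. Guca2a, the hormone guanylin, read 13.95, 12.61, 13.37 and 13.26. Enteroendocrine markers had a median of -0.08, with Cck the 1 member at least 2-fold apart. Of the tuft cell markers, Il17rb was higher by 1.26 and Dclk1 lower, at -1.06. Small intestinal markers included Mttp, the lipid loader of lipoproteins, at 5.83 and 7.93, and Apoc3 at 7.86, 6.17, 5.19 and 4.65. Of the glycosyltransferases, B3gnt6, which builds mucin core structures, read 8.51, 6.32, 5.70 and 7.83, and B4galnt1 8.51, 7.39, 6.14 and 8.50. In both genes the VhlF/F/Apcmin/+ array was lowest.

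**Figure D5:**
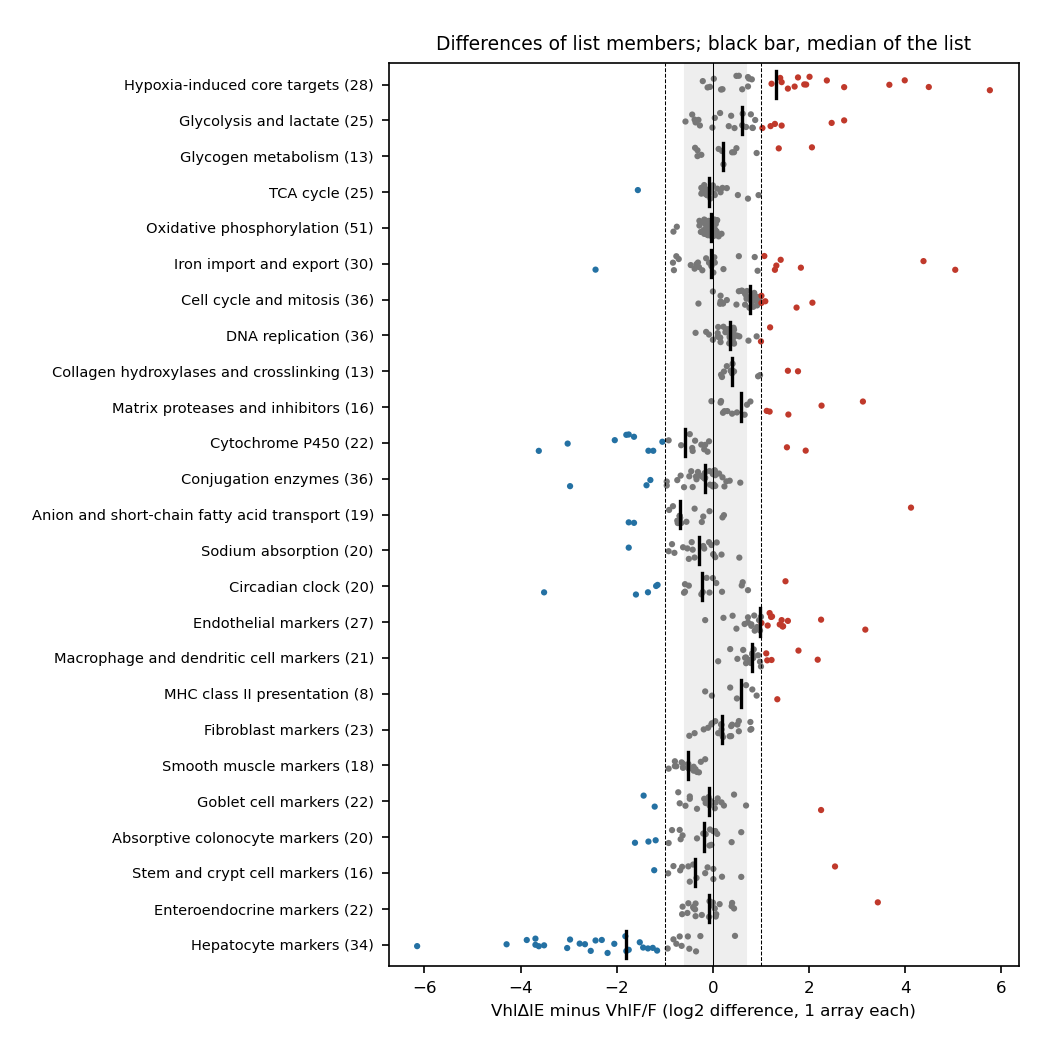
VhlΔIE minus VhlF/F (x axis, log2) for the members of 25 gene lists that lay above the floor, 1 point per gene, with their number in parentheses. Red and blue points are at least 2-fold higher and lower, black bars are list medians, and the grey band spans the 5th to 95th percentile of all genes. The core hypoxia list has its median at 1.31 and the hepatocyte list at -1.81.

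Several lists stayed near the median of all genes. Tight junction and adhesion genes had a median of 0.01 over 30 members, sphingolipid synthesis -0.02 over 25, apoptosis regulators 0.00 over 25 and the unfolded protein response 0.11 over 29. None of the junction, sphingolipid or unfolded protein genes was at least 2-fold apart. The necroptosis kinase Ripk3 was the 1 apoptosis gene apart, at 7.55 and 8.70. Of 20 oxygen-dependent chromatin enzymes none was 2-fold apart, with Kdm3a, a histone demethylase and known hypoxia target, at 9.98 and 10.71. Among Hox genes, which mark position along the gut, Hoxd10 read 6.52, 5.38, 9.13 and 6.77, and the list median was -0.09. The VhlF/F/Apcmin/+ array was the high one for Hoxd10. Of 8 pancreatic acinar markers, Clps read 8.83, 6.68, 8.77 and 7.18 and Sycn 13.15, 11.81, 13.58 and 12.23, while the rest of the list lay within 2-fold. None of the 14 adipocyte markers above the floor was 2-fold apart, with a median of -0.14.

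Clock genes also differed between the arrays. The repressor Nr1d2 read 11.55, 10.20, 12.02 and 11.13, Per3 9.40, 7.80, 10.18 and 8.88, and Tef 10.17, 8.99, 10.78 and 9.94. Npas2, an activator of the clock, went the other way, at 8.16, 9.67, 7.45 and 9.03. The time of sampling is not given in the sources used here, so its part in these differences was not tested. Dbp, by either of its probe sets, was lower, at -3.51 and -3.25.

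The lowest genes were led by hepatocyte transcripts. Serpina1c, an alpha-1 antitrypsin gene, read 10.45, 4.30, 4.30 and 3.79, and the fibrinogen genes Fga, Fgb and Fgg were lower, at -2.77 to -2.19. All of these read under 6 outside VhlF/F and passed the floor through it alone, so that they had to lie lower. Other members of the list did too, and they enter its median. With VhlF/F/Apcmin/+ in the place of VhlF/F the hepatocyte median was 0.14, in contrast to -1.81. Of the 39 lower genes in which VhlF/F alone stood at least 1 above each other array, 21 were on the hepatocyte list. Isx, a homeobox factor of the gut, read 8.27, 5.62, 5.88 and 6.0 and is not on it. Nor are Pzp, Vtn, Plg, Saa4, Pon1 and Serpinc1, genes of plasma proteins with the same pattern. The list thus does not hold every gene of this kind. Lower genes that followed Vhl status numbered 67. They included Slc37a2, a sugar phosphate carrier of the endoplasmic reticulum, at 11.33, 8.29, 10.59 and 6.72, and Hif1a, Slc5a8, Slc26a2, Abcb1a, Klb, Mptx1 and Dpyd described above.

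Genes at least 2-fold higher here and under 1.5-fold apart in the Apcmin/+ pair included stromal and immune transcripts. Igfbp5, a binder of insulin-like growth factors, read 8.71, 10.07, 9.10 and 9.54, and Selplg, the selectin ligand of leukocytes, 6.08, 7.39, 6.39 and 6.89. Cd163, a scavenger receptor of macrophages, read 6.51, 7.64, 6.77 and 7.23, and Sfrp2, a secreted Wnt antagonist, 6.64, 7.77, 7.28 and 7.72. In each the VhlΔIE array was highest and the VhlF/F array lowest. Klk1b5 and Pla2g4f differed by 1.51 and 1.25 here and by 0.31 and 0.11 in that pair. The difference between the pairs was not tested, as each rests on 2 arrays.

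Some of the genes apart lay side by side in the order of the genes compared. Genes that were not compared, such as those under the floor, may lie between such neighbours. By gene order in the RefSeq table, 36 of the higher genes formed 17 runs of neighbours and 26 of the lower genes 10 runs, among 11850 genes placed. How many runs would form with the genes in random order was not determined. The longest higher runs were Mmp13, Mmp3 and Mmp10, and Mettl8, Dcaf17 and Cybrd1, with differences of 1.22, 2.23 and 1.83 in the latter. The longest lower run was Cyp2c55, Cyp2c65, Cyp2c29, Cyp2c68 and Cyp2c70, from -3.02 to -1.23. In the Apcmin/+ pair they differed by -1.39, 2.4, -0.04, -1.81 and -0.03, so they did not share a pattern over the arrays. Members of such families share sequence, and probes may not tell them apart. The caveolin genes Cav2 and Cav1 were such a pair too, at 1.38 and 1.35. Neighbours of different families were also paired, such as Tmem237 with Mpp4 and Ndufa4l2 with Shmt2. Genes without a list role in these runs were chosen by position after their values were seen.

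Probe sets of the same gene mostly pointed the same way. Of the 270 higher genes 95 had several probe sets above the floor, and in 57 all were at least 2-fold higher and in 95 all lay above 0. Of 57 such lower genes 29 were at least 2-fold lower by all and 56 had the same sign in all. Just inside the 2-fold threshold lay Cd300lg, Vcan and Rrm2, each at 1.001, and just outside it Cdca3, Rac3 and Erg at 0.999, 0.998 and 0.996. On the lower side Misp3, Acsm3 and Alpi lay inside at -1.001, -1.002 and -1.004, and Cpne2 and Pln outside at -0.998 and -0.997. The threshold thus cuts a continuous range, and counts near it carry no precision.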

How the data were processed

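Total RNA from scraped colon mucosa was labelled from 250 ng and hybridised to an Affymetrix mouse array of 45101 probe sets, 1 array per genotype. The deposited values are log2 and were made by the authors by RMA in affy, as the submitters' processing notes name them, without versions. RMA quantile-normalizes the arrays, so a shift of all transcripts would not be seen, and the number of arrays limits the precision.

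Symbols came from the platform annotation: 34958 probe sets had a single symbol, 932 several, and 9211 were not listed. The floor was a log2 value of 6 and the call a 2-fold difference. No test was made, as each group has 1 array. The members and the 84 gene lists were chosen with earlier results of these data known. Named genes were the 30 highest and 30 lowest, the 5 largest differences of each list and any list member 2-fold apart, genes next to the threshold, genes apart in this pair more than in the Apcmin/+ pair, and fixed checks. The counting was tested on simulated data. Alternatives covered the floor, probe sets, cyclic loess in limma 3.58.1, the control array and the fold threshold. Python 3.11.15, pandas 2.3.3, numpy 2.4.6, matplotlib 3.10.9 and R 4.3.3 were used.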

Additional observations from a re-analysis of the deposited data

Results flagged for a closer look

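For 9 genes the difference of VhlΔIE minus VhlF/F and the same difference in the Apcmin/+ pair were both at least 2-fold and opposite in direction. Each rests on 2 arrays, and the difference between the pairs was not tested. B3gnt6 differed by -2.19 here and 2.13 there, Cyp2c65 by -1.64 and 2.4, Ang4 by -1.44 and 4.30, and B4galnt1 by -1.12 and 2.35. Cmah, which makes N-glycolylneuraminic acid, differed by -1.12 and 1.98, the brush-border genes Alpi and Tmigd1 by -1.0 and 1.49 and by -1.19 and 1.07, and Arg1 and Cyp2e1, both on the hepatocyte list, by -1.82 and 1.39 and by -1.80 and 1.35. In all 9 the VhlF/F/Apcmin/+ array read lowest of the 4 arrays.

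The 4 control probe sets for Cre recombinase, which name no mouse gene and entered no comparison, were higher in VhlΔIE by 4.70, 4.49, 5.53 and 6.21.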

How the results depend on the processing

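The counts of 270 higher and 190 lower genes were 293 and 210 with no floor, 229 and 155 when the floor was 7, 223 and 152 when lower values were set to 6, 220 and 155 with the mean over probe sets, 229 and 163 without probe sets that may cross-hybridise, and 300 and 177 after cyclic loess. With a 1.5-fold threshold they were 738 and 603. With VhlF/F/Apcmin/+ in the place of VhlF/F they were 373 and 172, of which 209 and 97 were shared with the counts above. That control also differs in Apc, so it is not the same comparison. Under it, of 233 named genes 149 stayed on the same side of 2-fold, 54 no longer reached it, 1 newly reached it and 29 turned direction. Genes that stayed under 2-fold count among the 149 whatever their direction.

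The genes that turned read as follows with that control: Alb 1.15, Tdo2 0.18, Serpina1b 1.04, Cyp3a11 0.48, Mup3 0.26, Fga 0.18, Pzp 0.06, Fabp1 0.70, Apoa2 0.10, Fgg 0.01, B3gnt6 0.62, Fgb 0.09, Vtn 0.02, Slc13a1 0.33, Saa4 0.03, Apoc3 0.98, Pon1 0.35, Cyp2c65 1.07, Serpinc1 0.30, Ang4 1.82, Kdm5d 1.42, Alpi 0.62, Apoh 0.29, Arg1 0.42, B4galnt1 1.24, Cyp2c29 0.44, Cyp2e1 1.90, Dclk1 0.01 and Tmigd1 0.99. The cause was not tested. List medians that turned were carbonic anhydrases at 0.02 and hepatocyte markers at 0.14 with that control, and skeletal muscle at 0.07 and mesothelial and lymphatic markers at -0.21 with no floor.

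No paired analysis was possible because each genotype has 1 array and the labels give no replicate numbers. Nor was any array left out. Single differences carry no error, and signal near background bounds the fold seen for levels under 6.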
